A study of Arabidopsis thaliana with 6 samples.

Results

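The circadian clock genes of Arabidopsis thaliana and their direct outputs were examined here in leaves of the pub2pub4 double mutant and of wild type. The gene set held 38 members, chosen by locus code (AGI code) as morning, day and evening clock genes, the LNK and RVE families, the ZTL family, and the CDF, CO and PIF4/PIF5 outputs, out of 33602 genes in the deposited table. All 38 had a row in the table and enough reads to be tested, among 19019 tested genes. The pub2pub4 plants, mutant in the U-box ubiquitin ligase genes PUB2 and PUB4, were set against wild type, with 3 libraries of each genotype. Leaves of both came from plants 25 days old grown under 16 h of light and 8 h of dark, and all 6 libraries carry the label mock, a treatment that the labels do not describe further. Neither the hour of harvest nor the ecotype, the mutant alleles or the number of plants behind a library is given in the sources used here. The p-values therefore measure the spread between these libraries, which may be technical.

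The plant clock is a loop of transcription factors that peak in turn over the day. The MYB-like factors CCA1 and LHY peak at dawn and repress evening genes, the PRR proteins follow from morning to dusk and repress CCA1 and LHY, and ELF3, ELF4 and LUX form the evening complex, which represses PRR9, PIF4 and PIF5 at night. RVE8, RVE4 and RVE6 with the LNK co-activators switch on afternoon and evening genes, while the F-box proteins ZTL, FKF1 and LKP2 target clock proteins and CDF repressors for breakdown. In leaves the clock times photosynthesis, growth, stress responses and flowering. Most members were grouped by the phase at which each transcript is known to peak: 8 at dawn, 11 in the morning, 5 in the afternoon and 7 in the evening. The other 7, labelled no fixed phase, were not assigned to a phase here. The label does not mean that their transcripts do not cycle.

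Library totals lay between 20506882 and 20732799 expected counts (estimates of the reads from each gene). PUB2 stood at 0.382, 0.543 and 0.588 CPM in pub2pub4, against 9.40, 10.3 and 7.48 CPM in wild type, and PUB4 at 2.39, 3.45 and 3.83 CPM in pub2pub4, against 20.4, 23.6 and 19.0 CPM in wild type. CPM here are counts scaled for library size with TMM (trimmed mean of M-values) factors. The first principal component (45.2% of variance) separated the genotypes, with pub2pub4 at 29.6, 28.3 and 28.2 and wild type at -31.4, -37.0 and -17.7. Libraries of 1 genotype also stood apart. On the second component (24.4% of variance) the pub2pub4 libraries lay at 31.8, 9.31 and -38.8, against 4.41, 4.81 and -11.6 for wild type. Leaf markers were high, with summed mesophyll markers (RBCS1A, LHCB1.1, CA1 and RCA) at 22630 to 26330 CPM in pub2pub4 and 24450 to 26130 CPM in wild type. Summed root, flower and seed markers, 3 of each, reached at most 0.395 CPM in pub2pub4 and 1.11 CPM in wild type, with the seed markers CRC and OLEO1 at 0 in every library. Of 2 shoot meristem markers WUS was at 0, and their sum was 0.588 to 2.25 CPM in pub2pub4 and 0.383 to 1.78 CPM in wild type.

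Of the 38 clock and output genes, 3 fell in pub2pub4 (LNK2, PRR7 and PIF4), 1 rose (ELF4) and 34 did not pass the test. Their log2 changes were -0.59 for LNK2, -0.65 for PRR7, -0.32 for PIF4 and 0.36 for ELF4, so the falls took the first 3 transcripts to 0.664, 0.639 and 0.802 of the wild-type level and ELF4 to 1.28 times that level. A gene is called at an adjusted p under 0.05 from edgeR's quasi-likelihood test, Benjamini-Hochberg adjusted over all tested genes. The 4 calls are 10.5% of the members, against 4.46% of all tested genes, of which 2.49% were called higher and 1.97% lower. The median log2 change of the members was -0.04, against 0.01 over all tested genes, and the median size of a change was 0.26, against 0.13. Libraries of the genotypes did not overlap for 13 members (34.2%, against 26.2% of all tested genes), 4 higher and 9 lower in pub2pub4. At an unadjusted p under 0.05 there were also 13 members, against 19.7% of all tested genes. When each library was left out in turn, 0 members were called without wild type 1 or without pub2pub4 2, where calls over all genes dropped to 132 and 91, and only LNK2 was called without wild type 2, where they dropped to 86. The fold changes of the 4 called genes kept their sign and much of their size in each omission, as given with each gene.

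**Figure D1:**
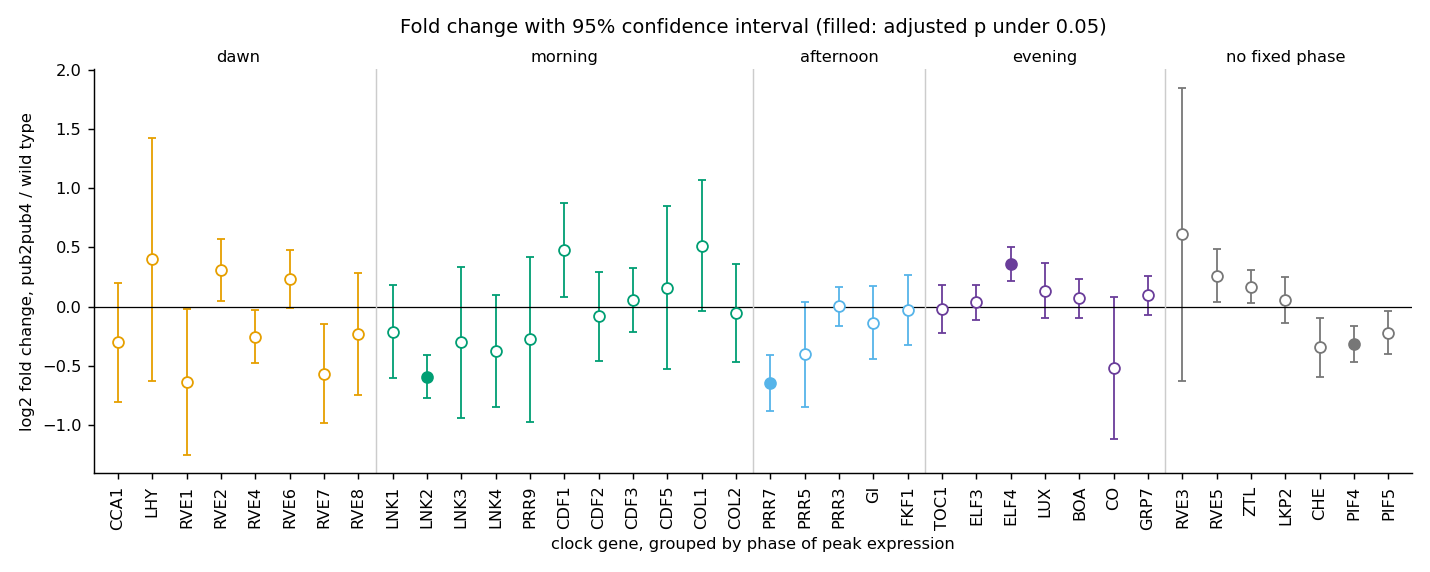
Log2 fold change (pub2pub4 over wild type) of the 38 clock and output genes, grouped by phase of peak expression, with 95% confidence intervals from the edgeR fit; filled points are the 4 genes called at an adjusted p under 0.05. LNK2, PRR7 and PIF4 lie below 0 and ELF4 above it, while the dawn genes CCA1 and LHY have wide intervals that include 0.

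LNK2 (AT3G54500, chromosome 3, 20175370 to 20179070, minus strand, TAIR10.1) encodes a morning co-activator that joins RVE8 and RVE4 at afternoon and evening genes. It stood at 19.8, 22.2 and 21.6 CPM in pub2pub4, against 31.4, 30.3 and 34.2 CPM in wild type. All mutant libraries were below all wild-type libraries, and each genotype was tight. The log2 change was -0.59 ± 0.08 (SE, n = 3 each; edgeR adjusted p 0.0123). Leaving out wild type 1 (adjusted p 0.0519) or pub2pub4 2 (0.0511) ended the call, while the log2 change lay between -0.64 and -0.54 over all 6 omissions. In the TAIR10.1 annotation its span overlaps AT3G54490 on the other strand over 93 bases, a gene at 0.0809 CPM in wild type, and AT3G08405 over 266 bases, whose level was not analysed here.

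PRR7 (AT5G02810, chromosome 5, 637681 to 642030, minus strand) encodes a pseudo-response regulator that represses CCA1 and LHY through the day. Its levels were 42.3, 41.35 and 53.6 CPM in pub2pub4, against 69.6, 71.4 and 73.9 CPM in wild type. Mutant library 3 was the nearest to wild type, and the groups did not overlap. The log2 change was -0.65 ± 0.10 (SE, n = 3 each; edgeR adjusted p 0.0175), and leaving out wild type 1, wild type 2 or pub2pub4 2 ended the call (adjusted p up to 0.0771), while the log2 change lay between -0.78 and -0.58 over all 6 omissions.

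ELF4 (AT2G40080, chromosome 2, 16734294 to 16734953, minus strand) encodes a small protein of the evening complex. It was at 101, 103 and 100 CPM in pub2pub4, against 79.7, 74.0 and 83.0 CPM in wild type. The mutant libraries were almost level with each other, and all lay above wild type. The log2 change was 0.36 ± 0.06 (SE, n = 3 each; edgeR adjusted p 0.0243). Leaving out wild type 1, wild type 2, pub2pub4 1 or pub2pub4 2 ended the call (adjusted p up to 0.122), while the log2 change lay between 0.31 and 0.40 over all 6 omissions.

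PIF4 (AT2G43010, chromosome 2, 17886101 to 17889087, plus strand) encodes a basic helix-loop-helix factor that promotes elongation growth and is an output of the evening complex. It was at 49.8, 54.0 and 52.9 CPM in pub2pub4, against 62.5, 68.4 and 64.4 CPM in wild type. The groups did not overlap, and the log2 change was -0.32 ± 0.07 (SE, n = 3 each; edgeR adjusted p 0.0373). When each of the 6 libraries was left out in turn, only the omission of pub2pub4 3 kept the call, while the log2 change lay between -0.35 and -0.29.

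**Figure D2:**
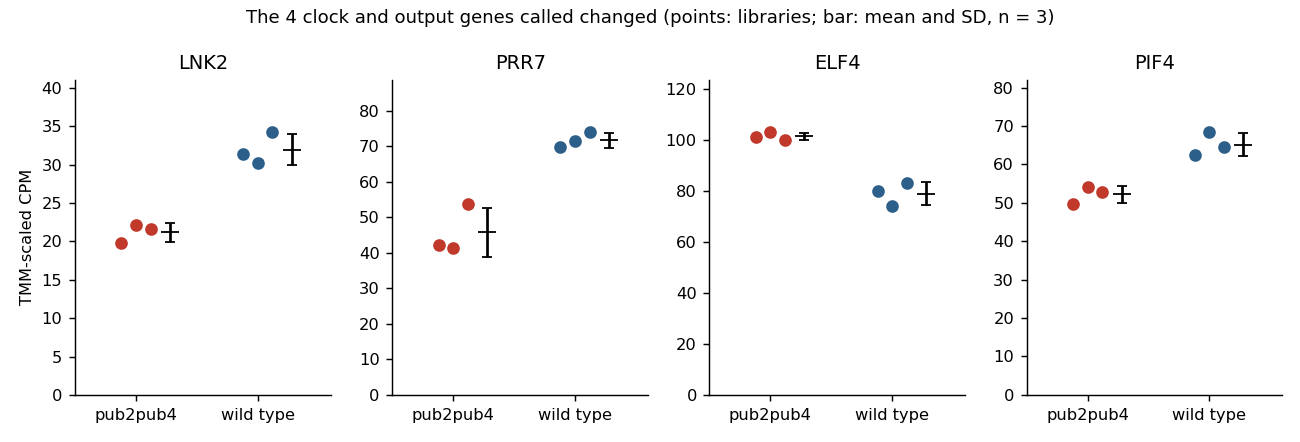
TMM-scaled CPM of LNK2, PRR7, ELF4 and PIF4 in each library (points, pub2pub4 left of wild type), with the mean and SD of 3 libraries beside them and each axis starting at 0. The genotypes do not overlap for any of the 4 genes, and for PRR7 the mutant library at 53.6 CPM stands above the other mutant libraries.

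Because the clock factors act at short promoter motifs, the 300 bases before the annotated start of LNK2, PRR7 and PIF4, the 3 genes that fell, are shown, 5′ to 3′ on the strand of the gene (RefSeq, TAIR10.1). Capitals mark matches, on either strand, to the evening element AAATATCT, bound by CCA1, LHY and RVE factors, the CCA1 binding site AAAAATCT, the G-box CACGTG, bound by PIF factors among others, and GATNCG, the site of LUX. The windows are chr3:20179071-20179370 (minus) for LNK2, chr5:642031-642330 (minus) for PRR7 and chr2:17885801-17886100 (plus) for PIF4.
LNK2: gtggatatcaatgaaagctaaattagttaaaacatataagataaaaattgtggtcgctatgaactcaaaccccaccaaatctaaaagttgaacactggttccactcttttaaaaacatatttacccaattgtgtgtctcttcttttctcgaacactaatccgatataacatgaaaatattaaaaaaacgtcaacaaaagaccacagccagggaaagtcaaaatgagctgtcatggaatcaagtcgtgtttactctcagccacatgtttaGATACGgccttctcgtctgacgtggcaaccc
PRR7: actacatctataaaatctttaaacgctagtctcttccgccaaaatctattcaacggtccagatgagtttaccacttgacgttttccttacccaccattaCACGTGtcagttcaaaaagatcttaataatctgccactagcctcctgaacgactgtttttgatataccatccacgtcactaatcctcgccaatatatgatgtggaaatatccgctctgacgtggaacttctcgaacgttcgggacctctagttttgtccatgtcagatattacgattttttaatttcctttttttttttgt
PIF4: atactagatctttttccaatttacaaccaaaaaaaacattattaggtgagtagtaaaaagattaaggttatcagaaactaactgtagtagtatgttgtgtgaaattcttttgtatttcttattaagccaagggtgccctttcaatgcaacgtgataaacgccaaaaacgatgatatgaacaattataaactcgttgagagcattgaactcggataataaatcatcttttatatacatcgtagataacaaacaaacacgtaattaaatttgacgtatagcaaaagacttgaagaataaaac

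PRR7 had a G-box 201 bases before its start and LNK2 a LUX site 31 bases before it. None of these letters occurred in the PIF4 window. Over 37 members, the evening element occurred in 8 windows (21.6%), against 5.64% of 27442 windows of the same length before nuclear protein-coding genes. By phase it occurred in 1 of 8 dawn, 1 of 11 morning, 2 of 5 afternoon, 4 of 6 evening and 0 of 7 genes with no fixed phase. TOC1, LUX, BOA and GRP7 held it among the evening genes, with 3 matches in GRP7. The G-box occurred in 13 members (35.1%, against 7.09%), CCA1, LHY, RVE1 and RVE2 of the dawn group among them. LUX sites occurred in 13 (35.1%, against 20.1%) and CCA1 binding sites in 5 (13.5%, against 7.94%). No matches overlapped each other. A match is a sequence of letters only, and binding was not measured.

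**Figure D3:**
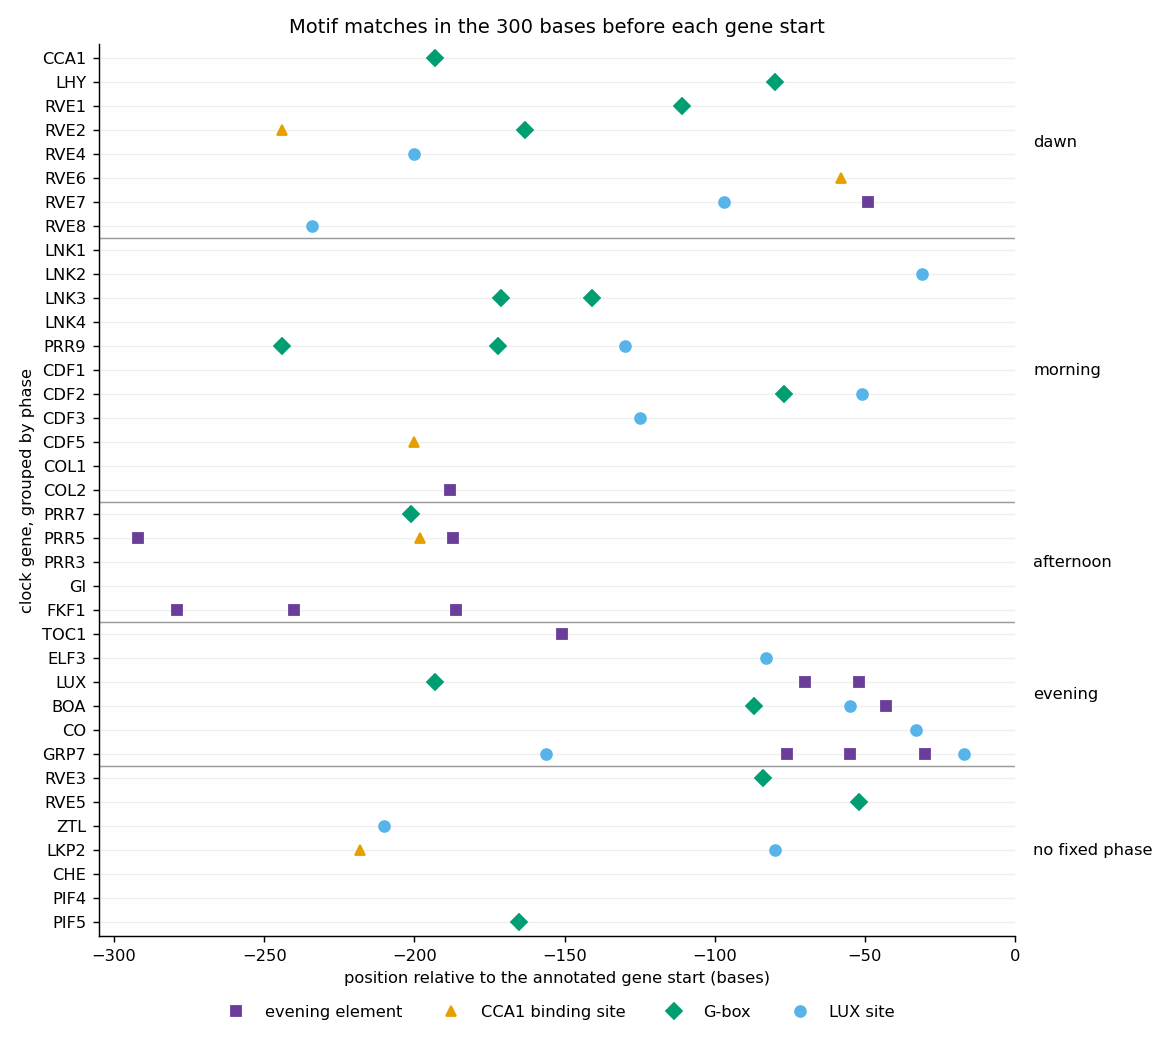
Position of each motif match, as bases before the annotated gene start, in the windows of 300 bases of 37 clock and output genes, grouped by phase. Evening elements occur in 4 of 6 evening genes and in 4 of the other genes shown, while G-boxes occur in every phase group, in 4 of 8 dawn genes and 1 of 5 afternoon genes for example.

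Levels per gene length, as CPM per kilobase, placed the median dawn gene low and the median evening gene high in both genotypes. Single genes departed from this order, such as RVE2 of the dawn group at 62.9 and CO of the evening group at 2.0 in wild type. The median dawn gene was at 2.20, 1.79 and 1.68 CPM per kilobase in pub2pub4, against 2.29, 3.0 and 2.63 in wild type. The median morning gene was at 3.74, 3.19 and 4.27 in pub2pub4, against 4.31, 3.35 and 4.19 in wild type. The median afternoon gene was at 33.0, 30.2 and 37.2 in pub2pub4, against 37.8, 38.2 and 38 in wild type. The genotypes did not overlap for the dawn and afternoon medians, both lower in pub2pub4, but such medians are set by the middle genes alone. Gene by gene, the genotypes did not overlap for 4 of 8 dawn members, 3 lower and 1 higher in pub2pub4. The same held for 2 of 5 afternoon members, both lower, against 26.2% of all tested genes. The median evening gene was at 65.4, 65.1 and 79.1 in pub2pub4, against 67.3, 68.0 and 72.9 in wild type, and like the morning median it overlapped. The hour at which each library was taken is not stated, so the hour of harvest, a shift in phase and a change in amplitude cannot be told apart. In whole leaves, fewer cells of a type and less transcript per cell cannot be told apart either. GRP7, for an RNA-binding protein under clock control, was the highest member at 3903 CPM per kilobase in pub2pub4 and 3656 in wild type, followed by ELF4 at 163.6 in pub2pub4 and 127.5 in wild type. LHY was the lowest in both genotypes, at 0.331 in pub2pub4 and 0.251 in wild type.

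**Figure D4:**
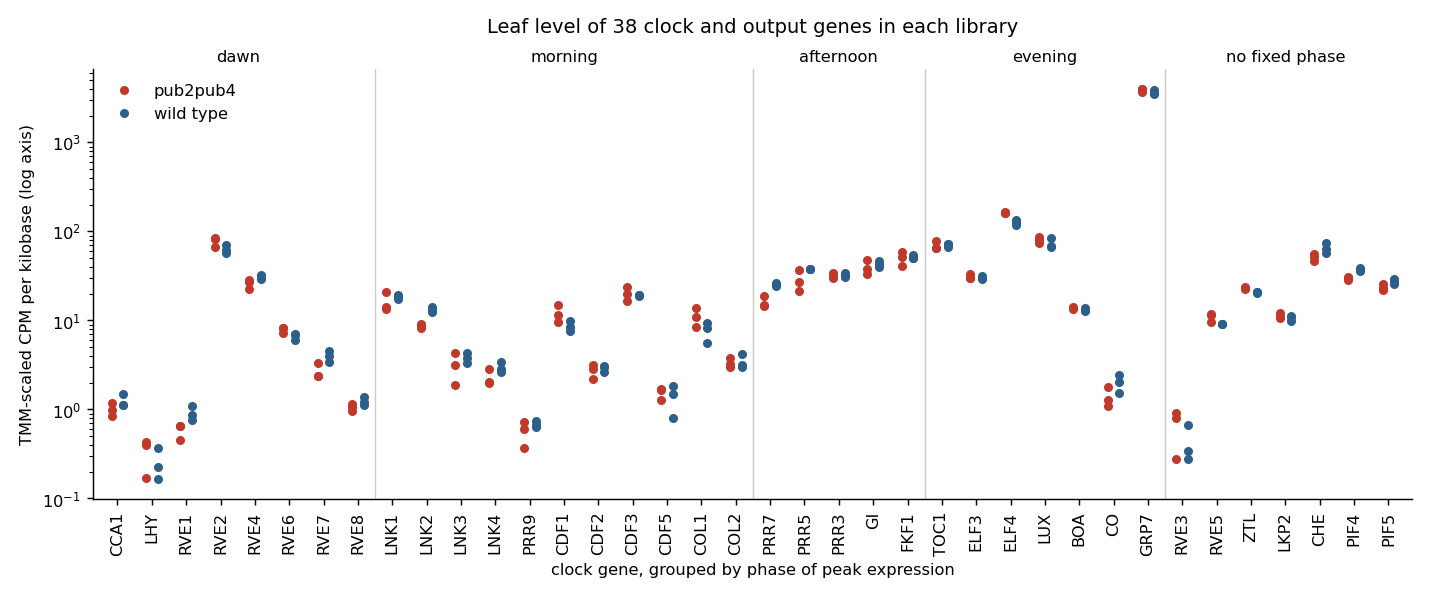
TMM-scaled CPM per kilobase (log axis) of the 38 clock and output genes in each of the 6 libraries, pub2pub4 left of wild type, grouped by phase of peak expression. Most dawn and morning genes lie below the afternoon genes, GRP7 stands far above all others, and genotype differences are small beside the differences between genes.

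In the dawn group 0 of 8 members were called, against 4.46% of all tested genes. Groups of 5 to 11 genes are too small for 0 or 1 call to describe a phase. CCA1 (AT2G46830) was at 1.77, 2.47 and 2.06 CPM in pub2pub4, against 2.31, 3.10 and 2.35 CPM in wild type, and its groups overlapped (log2 -0.30, 95% interval -0.81 to 0.20). LHY (AT1G01060) was lower still, at 1.05, 0.444 and 1.13 CPM in pub2pub4, against 0.964, 0.591 and 0.431 CPM in wild type. With 9 to 23 counts per library, the 95% interval of its log2 change ran from -0.63 to 1.43, so both a fall and a rise stayed compatible with these counts. Among the related RVE genes, RVE7 (AT1G18330) stood at 5.11, 3.65 and 3.63 CPM in pub2pub4, against 5.30, 6.89 and 6.18 CPM in wild type. These did not overlap, and the log2 change was -0.57 ± 0.18 (SE, n = 3 each; edgeR adjusted p 0.126). RVE2 (AT5G37260), a single-MYB factor also known as CIR1, was at 65.2, 82.4 and 81.0 CPM in pub2pub4, against 59.9, 55.8 and 69.3 CPM in wild type. Mutant library 1 lay inside the wild-type range, and the log2 change was 0.31 ± 0.11 (SE, n = 3 each; edgeR adjusted p 0.187). RVE1 (AT5G17300), which links the clock to auxin synthesis, had a log2 change of -0.63 at 0.834 to 2.02 CPM. The activators RVE4 (AT5G02840), RVE6 (AT5G52660) and RVE8 (AT3G09600) did not share a direction, with log2 changes of -0.25 for RVE4, 0.23 for RVE6 and -0.23 for RVE8.

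In the morning group 1 of 11 members, LNK2, was called, against 4.46% of all tested genes. LNK1 (AT5G64170), the closest relative of LNK2, was at 34.05, 35.8 and 52.8 CPM in pub2pub4, against 44.4, 48.2 and 49.3 CPM in wild type. Mutant library 3 was above every wild-type library and the other mutant libraries below them. With all libraries the log2 change was -0.21 (edgeR adjusted p 0.549). Without pub2pub4 3, where calls over all genes rose from 848 to 1210, LNK1 was called, at -0.44 (edgeR adjusted p 0.0215). Only 1 of the 6 omissions called it, and the log2 change lay between -0.44 and -0.10 over them. LNK3 (AT3G12320) and LNK4 (AT5G06980) had log2 changes of -0.30 for LNK3 and -0.38 for LNK4, with overlapping groups, so all 4 LNK fold changes were negative. PRR9 (AT2G46790), the earliest of the PRR repressors, was at 0.669, 1.09 and 1.32 CPM in pub2pub4, against 1.35, 1.23 and 1.15 CPM in wild type, with overlapping groups.

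CDF1 (AT5G62430), a DOF factor that represses CO and FT, was at 12.04, 14.3 and 18.5 CPM in pub2pub4, against 10.4, 9.45 and 12.3 CPM in wild type. The lowest mutant library lay just inside the wild-type range, and the log2 change was 0.48 ± 0.17 (SE, n = 3 each; edgeR adjusted p 0.173). The other CDF genes were near 0, with log2 changes of -0.08 for CDF2 (AT5G39660), 0.06 for CDF3 (AT3G47500) and 0.16 for CDF5 (AT1G69570). CDF5 overlaps AT1G69572, on the other strand, over 1241 bases, a gene at 2.61 CPM in wild type, against 2.35 CPM for CDF5. COL1 (AT5G15850), a close relative and neighbour of CO, was at 14.5, 18.45 and 23.2 CPM in pub2pub4, against 15.8, 9.60 and 13.9 CPM in wild type. Its groups overlapped, and the log2 change was 0.51 ± 0.23 (SE, n = 3 each; edgeR adjusted p 0.288). COL1 lies wholly across AT5G15845 on the other strand (1807 bases, 0.777 CPM in wild type). COL2 (AT3G02380) had a log2 change of -0.06. It overlaps AT3G02370 over 771 bases (1.84 CPM in wild type) and AT3G02390 over 688 bases (0.274 CPM), both on the other strand.

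In the afternoon group 1 of 5 members, PRR7, was called, against 4.46% of all tested genes. PRR5 (AT5G24470), another PRR repressor of this group, was at 48.95, 61.4 and 84.0 CPM in pub2pub4, against 85.3, 86.2 and 85.8 CPM in wild type. The wild-type libraries were almost equal, whereas the mutant libraries spread widely and the highest of them nearly reached wild type. The log2 change was -0.40 ± 0.18 (SE, n = 3 each; edgeR adjusted p 0.293). Without pub2pub4 3, where calls over all genes rose to 1210, it was -0.64 and called (adjusted p 0.0124). Only 1 of the 6 omissions called PRR5, and the log2 change lay between -0.64 and -0.24 over them. GI (AT1G22770), which steadies ZTL and acts with FKF1 in flowering, was at 136.6, 155.5 and 195.4 CPM in pub2pub4, against 179, 192 and 164 CPM in wild type. The mutant libraries enclosed the wild-type range, with a log2 change of -0.14 ± 0.13 (SE, n = 3 each; edgeR adjusted p 0.626). FKF1 (AT1G68050), a blue-light sensing F-box gene, was at 85.8, 109.5 and 124 CPM in pub2pub4, against 105, 107 and 114 CPM in wild type. PRR3 (AT5G60100), whose protein protects TOC1 from breakdown, was level between genotypes at 68.7 ± 4.09 CPM in pub2pub4 and 68.6 ± 3.99 CPM in wild type (SD, n = 3 each), with a 95% interval of the log2 change from -0.17 to 0.17.

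In the evening group 1 of 7 members, ELF4, was called, against 4.46% of all tested genes. TOC1 (AT5G61380), a repressor of CCA1 and LHY and a target of ZTL, was at 177, 176 and 214 CPM in pub2pub4, against 183, 196 and 197 CPM in wild type. The groups overlapped, and the 95% interval of its log2 change was -0.22 to 0.18. Of ELF4's partners, LUX (AT3G46640) was at 107, 116 and 124 CPM in pub2pub4, against 96.8, 97.9 and 121 CPM in wild type, where library 3 lay among the mutant values. Its log2 change was 0.13 ± 0.10 (SE, n = 3 each; edgeR adjusted p 0.519). ELF3 (AT2G25930), the scaffold of the complex, was at 82.7 ± 4.58 CPM in pub2pub4 and 80.7 ± 2.85 CPM in wild type (SD, n = 3 each), with a 95% interval of the log2 change from -0.12 to 0.19. BOA (AT5G59570), the close relative of LUX, was at 20.1 ± 0.487 CPM in pub2pub4 and 19.2 ± 0.740 CPM in wild type (SD, n = 3 each). BOA overlaps AT5G59580 on the other strand over 1896 bases (2.23 CPM in wild type). LUX overlaps AT3G46650 on the other strand over 1507 bases (0.742 CPM in wild type). Close relatives such as LUX and BOA may also share reads.

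Among the outputs placed in the evening, CO (AT5G15840), which activates the flowering gene FT in long days, was at 1.58, 1.83 and 2.55 CPM in pub2pub4, against 2.17, 2.90 and 3.45 CPM in wild type. The groups overlapped, and the log2 change was -0.52 ± 0.26 (SE, n = 3 each; edgeR adjusted p 0.326). CO overlaps AT5G15843 on the other strand over 1967 bases, a gene whose level was not analysed here. GRP7 (AT2G21660) was at 3109, 3329 and 3349 CPM in pub2pub4, against 2981, 2938 and 3250 CPM in wild type, a log2 change of 0.09.

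Of 7 members with no fixed phase, 1, PIF4, was called, against 4.46% of all tested genes. PIF5 (AT3G59060), the growth-promoting relative of PIF4, was at 40.55, 43.4 and 47.3 CPM in pub2pub4, against 48.2, 50.95 and 53.6 CPM in wild type. The groups did not overlap, as for PIF4, and the log2 change was -0.22 ± 0.08 (SE, n = 3 each; edgeR adjusted p 0.167). CHE (AT5G08330), a TCP factor that represses CCA1, was at 49.9, 55.2 and 59.8 CPM in pub2pub4, against 61.5, 68.4 and 79.5 CPM in wild type. It did not overlap either, with a log2 change of -0.35 ± 0.11 (SE, n = 3 each; edgeR adjusted p 0.119), and a fit with a replicate block called it (adjusted p 0.0336). ZTL (AT5G57360), whose protein senses blue light and marks TOC1 and PRR5 for breakdown, was at 52.3, 54.4 and 55.65 CPM in pub2pub4, against 48.95, 47.0 and 48.7 CPM in wild type. All mutant libraries were above wild type, with a log2 change of 0.17 that did not pass the test. Its relative LKP2 (AT2G18915) had a log2 change of 0.06 and overlapping groups. RVE5 (AT4G01280) had a log2 change of 0.26 without overlap, and it shares 681 bases with AT4G01290 on the other strand, a gene at 110 CPM in wild type. RVE3 (AT1G01520), with 5 to 16 counts per library, was the most weakly measured member, with a 95% interval from -0.63 to 1.85.

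Within pub2pub4 the clock genes varied between libraries in a shared direction. Library 3 was the highest mutant library for 24 of 38 members (63.2%, against 35.3% of all tested genes), and library 1 the lowest for 25 (65.8%, against 36.3%). In wild type, library 3 was the highest for 21 members (55.3%, against 35.2%). Over the 27 members at 5 CPM or more on average, the median log2 deviation from the genotype's own mean was -0.11, 0.01 and 0.10 in the mutant libraries and -0.02, -0.03 and 0.06 in the wild-type libraries. Afternoon genes had a median SD between libraries of 0.261 on the log2 scale in pub2pub4 and 0.061 in wild type. These were the highest phase median in pub2pub4 and the lowest in wild type. The SD was larger in pub2pub4 for 5 of 5 afternoon genes, against 57.3% of all tested genes. For PRR3 it was nearly equal, at 0.0867 in pub2pub4 and 0.0837 in wild type. Dawn genes had a median SD of 0.191 in pub2pub4 and 0.167 in wild type, and genes with no fixed phase 0.110 in pub2pub4 and 0.0759 in wild type. Morning genes had a median SD of 0.253 in pub2pub4 and 0.164 in wild type, and evening genes 0.0784 in pub2pub4 and 0.0787 in wild type. Over all tested genes the medians were 0.125 in pub2pub4 and 0.110 in wild type. Some cell type markers outside the 38 members ranked the mutant libraries alike, and whether they follow the clock was not tested. LHCB1.1, a light-harvesting gene of the mesophyll list, was at 402, 425 and 783 CPM in pub2pub4, against 936.9, 937.5 and 1012 CPM in wild type. Its log2 change was -0.84, whereas the other mesophyll markers had 0.05 (RBCS1A), 0.02 (CA1) and -0.08 (RCA). RBCS1A was also lowest in pub2pub4 1 and highest in pub2pub4 3 of the mutant libraries. CA1 and RCA did not share this order and were highest in pub2pub4 2. The 3 guard cell markers (FAMA, MYB60 and GASA9) summed to 59.7, 86.7 and 104 CPM in pub2pub4, against 73.7, 88.6 and 93.9 CPM in wild type. The 3 vascular markers summed to 192.5 to 211 CPM in pub2pub4 and 206 to 229 CPM in wild type, and the 3 epidermal markers to 348 to 385 CPM in pub2pub4 and 381 to 406 CPM in wild type. None of the 14 tested markers was called, and their part in the clock values was not tested.

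**Figure D5:**
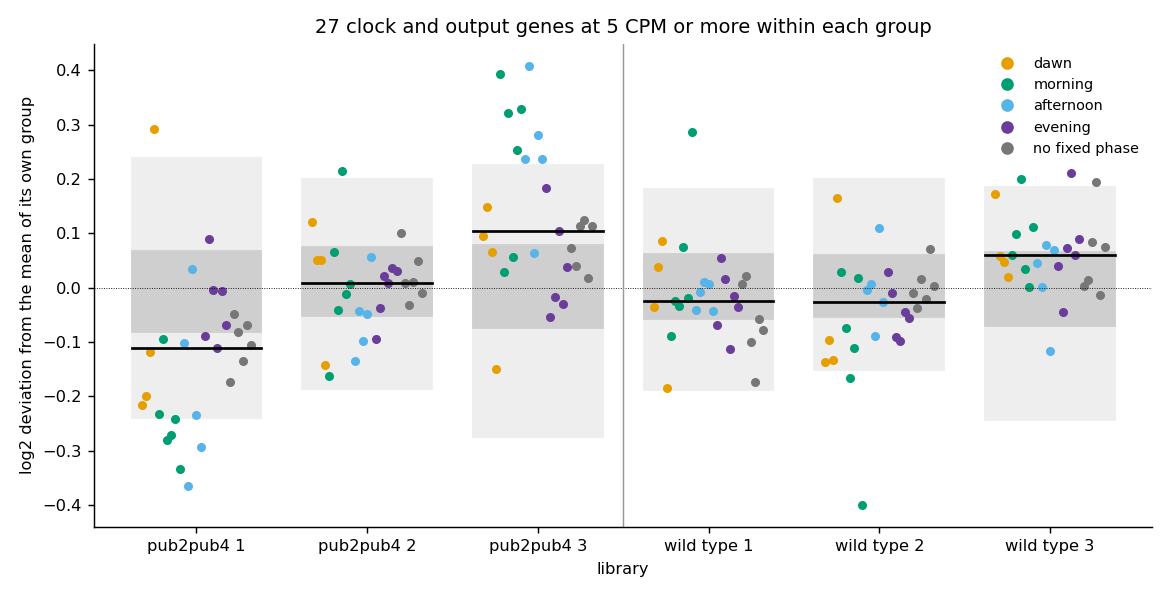
Log2 deviation of 27 clock and output genes from the mean of their own genotype, by library and coloured by phase; black lines are medians, and grey boxes span the middle 50% (dark) and 90% (light) of 14547 tested genes at 5 CPM or more. The clock genes lie low in pub2pub4 1 (median -0.11) and high in pub2pub4 3 (median 0.10), while the boxes of all genes centre on 0.

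Genes around the clock gave 1 call among 51, a share not above the 4.46% of all tested genes. Of 19 photoreceptor and light signalling genes, 0 were called, with 5 at an unadjusted p under 0.05, against 19.7% of all tested genes. The smallest p there was that of PIF7, a shade-responsive growth factor, which was at 8.69, 11.35 and 12.75 CPM in pub2pub4, against 15.5, 17.2 and 16.0 CPM in wild type (log2 -0.57 ± 0.14 SE, edgeR adjusted p 0.0589). Its groups did not overlap, and PIF7 passed under DESeq2, the replicate block, library totals, no filter or without pub2pub4 3, with adjusted p from 0.0151 to 0.207 over the alternatives. Of 19 other clock-associated regulators, JMJD5 (AT3G20810), for a Jumonji-domain protein of the clock, rose and 18 did not pass. JMJD5 was at 171, 187 and 163.5 CPM in pub2pub4, against 134, 135 and 146 CPM in wild type (log2 0.33 ± 0.07 SE, edgeR adjusted p 0.0451). Its groups did not overlap. Among the omissions of 1 library, only that of pub2pub4 3 kept its call, and scaling by library totals (adjusted p 0.0551) or a replicate block (0.0566) ended it. Of 13 other rhythmic outputs 0 were called, with 3 at an unadjusted p under 0.05, against the same 19.7%. FT, the flowering signal downstream of CO, was at 0.860, 0.888 and 1.03 CPM in pub2pub4, against 2.36, 2.90 and 1.39 CPM in wild type. The groups did not overlap, and the log2 change was -1.25 ± 0.31 (SE, n = 3 each; edgeR adjusted p 0.0665). FT was called without wild type 3, at -1.50 (adjusted p 0.0317), and by DESeq2 (0.0398). That was the only 1 of 6 omissions to call it, with adjusted p up to 0.233, and limma-voom did not call it (0.104). Its counts were 18 to 59 per library.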

How the data were processed

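Leaf messenger RNA libraries were sequenced on an Illumina HiSeq instrument, per the labels' protocols. The authors deposited 1 table of expected counts per gene with gene lengths. Of its values 95.1% were whole. TopHat2 2.1.0, RSEM 2.1.30 and TAIR10 are named, without their roles, per the submitters' processing notes. The sources used here give neither the strand setting nor the annotation release.

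Here expected counts were rounded and fitted in R 4.3.3 with edgeR 4.0.16: filterByExpr (minimum count 10, minimum total 15), TMM, and a robust quasi-likelihood two-sided test with genotype as the only term, tested on simulated data. SEs were derived as the size of the log2 change over the square root of F, and 95% intervals use the fit's degrees of freedom. Spread was taken on log2(CPM + 0.5). Positions, overlaps and promoters come from RefSeq TAIR10.1, matched by locus code for 38 of 38 members. Overlapping genes are not named for every member that has them. The promoter window of 1 member is not reported here. The table itself holds no coordinates. Symbols are mostly those in common use for each locus code. The deposited names differ for some genes, such as ADO3 for FKF1, TCP21 for CHE and LHCB1.2 for LHCB1.1. Same-numbered libraries deviated together with correlations of 0.126, 0.0642 and 0.152, against -0.176 to 0.0755 for differently numbered ones. Replicate numbers are not known to pair libraries and were not taken as pairs, and these correlations do not settle the question. A replicate block was therefore among the alternatives.

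Values per library are given for called members and for the 2 uncalled members per phase with the smallest p. From the other lists the called genes and the smallest p are given. Further genes were named after their values were seen. The members, lists and rules were chosen with earlier results of these data known. Alternatives were DESeq2 1.42.0, limma-voom (limma 3.58.1), a replicate block, omission of each library, no rounding, no filter, a stricter filter (5 CPM in 3 libraries), and scaling by library totals or by median-of-ratios factors.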

Additional observations from a re-analysis of the deposited data

How the results depend on the processing

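Over all genes 86 to 1210 calls were made with a library left out, 1452 by DESeq2 and 1066 with the replicate block, against 848. Members called higher numbered 0 to 1 and members called lower 0 to 5 with a library left out. The replicate block added CHE alone to the 4 calls, and DESeq2, limma-voom, both other scalings, both other filters and no rounding gave the same 1 higher and 3 lower counts. The signs of LNK2, PRR7, ELF4 and PIF4 were the same in all 14 alternatives. Signs turned in fits without a library for 9 genes near 0, with ranges of -0.208 to 0.0529 for CDF2, -0.0868 to 0.17 for CDF3, -0.12 to 0.42 for CDF5, -0.16 to 0.11 for COL2, -0.0131 to 0.0619 for ELF3, -0.16 to 0.10 for FKF1, -0.0055 to 0.10 for LKP2, -0.0479 to 0.0462 for PRR3 and -0.124 to 0.0228 for TOC1. PRR3 also turned under DESeq2 (-0.0044), median-of-ratios factors (-0.0039), library totals (-0.015), no filter (-0.00017) and the stricter filter (-0.0032). The cause was not tested. Depth limits LHY and RVE3, and clock phase cannot be read without the hour of harvest.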

Other observations

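Of the other PIF genes, PIF3 and PIF1 are named here after their values were seen, and neither passed the test. PIF3, which acts in seedling growth in the dark, was at 17, 27.9 and 25.0 CPM in pub2pub4, against 15.3, 13.6 and 14.7 CPM in wild type. All mutant libraries were above wild type, and the log2 change was 0.68 ± 0.18 (SE, n = 3 each; edgeR adjusted p 0.0818). PIF1, a repressor of germination in the dark, was at 18.05, 20.3 and 18.2 CPM in pub2pub4, against 19.8, 24.3 and 24.7 CPM in wild type, with a log2 change of -0.28 (edgeR adjusted p 0.173).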
